A study of Mus musculus with 6 samples.

Results

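The genes described here encode the mitochondrial ribosomal proteins, taken as every gene of the count table whose mouse symbol is Mrpl or Mrps followed by a number, with pseudogenes left out. The rule found 77 genes among the 22969 Ensembl identifiers of the table. Of these, 48 carry Mrpl symbols, named for the large subunit, and 29 carry Mrps symbols, named for the small subunit. All 77 passed the filter on low counts and were among the 12350 genes tested. Mrpl12, which would be a further member, was not analysed here.

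The mitochondrial ribosome is built in the matrix from ribosomal RNAs that are transcribed from mitochondrial DNA and from proteins that are encoded in the nucleus, made in the cytosol and imported. It translates only the mRNAs of the mitochondrial genome, which encode core subunits of the respiratory chain and of ATP synthase. Some of its proteins have counterparts in the bacterial ribosome, and the rest occur in mitochondrial ribosomes only. Hematopoietic stem cells (HSCs) are known for a low rate of protein synthesis and for relying little on respiration while they are quiescent.

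RNA was sequenced from HSCs of adult C57BL/6 mouse bone marrow, sorted as lineage-negative Sca-1+ c-Kit+ (LSK) CD150+ CD48- cells, with about 500 cells in a library. Libraries were made by Smart-seq2, which amplifies full-length cDNA of polyadenylated RNA by PCR and keeps neither strand nor molecular identifiers. The 3 control libraries came from Rbfox2-fl/fl mice without Cre, and the 3 labelled mutant from Vav1-cre Rbfox2-fl/fl mice. Both groups thus carried the floxed alleles, and the Cre transgene was present in the mutant group alone. Vav1-cre is active throughout the blood system, and Rbfox2 is an RNA-binding regulator of alternative splicing. The series asks how Rbfox2 acts on HSC self-renewal and protein homeostasis, and the one comparison of the design is mutant against control.

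Several facts of the libraries bear on every value below. Controls 1 and 3 were near-identical (chi-square per degree of freedom 3.439, against 156.2 to 808.1 for the other library pairs) and were added together as 1 sample, so the comparison had 2 control samples and 3 labelled deleted. Totals ran from 47895459 to 55151484 counts in the control libraries and from 23474895 to 35650284 in those labelled deleted. Library 1 labelled deleted stood apart, with a Spearman correlation across genes of 0.774 to 0.777 with the others, where all other pairs had 0.895 to 0.963. Rbfox2 itself had 4.70 CPM (counts scaled by library size) in controls 1 and 3, 0.229 in control 2, and 0.101, 2.26 and 0.257 in the libraries labelled deleted 1, 2 and 3 (log2 fold change -1.49, SE 2.0, edgeR adjusted p = 0.923). Since library 2 labelled deleted lay above control 2, and the removed exon is not stated in the sources used here, Rbfox2 counts did not check the labels, and the libraries are called by their labels throughout. Xist and Y-linked counts placed libraries 1 and 3 labelled deleted as female and the other 4 as male. The 10 HSC markers summed to 1730 and 1830 CPM in the control samples and 1460, 1560 and 1600 CPM in the labelled deleted libraries, and Cd48, which the sort excludes, had 0 counts outside library 3 labelled deleted. Granulocyte and monocyte genes summed to 2880 and 2110 CPM in the controls and to 2010, 1790 and 1640 CPM in the others. Megakaryocyte genes summed to 266 and 290 CPM against 52.2, 132 and 209 CPM, and B cell genes to 322 and 230 CPM against 212, 129 and 168 CPM, so all 3 lists were lower in every library labelled deleted. Genes of stroma and endothelium were higher there, with 8.36 and 10.3 CPM against 38.8, 15.3 and 13.6 CPM, while erythroid (119 to 574 CPM) and T and NK cell genes (80.2 to 104 CPM) overlapped between groups. The part of these cell types in the results was not tested. In bulk RNA, fewer cells of a type and less RNA per cell cannot be told apart.

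Most mitochondrial ribosomal protein genes were lower in the libraries labelled deleted. The fitted log2 fold change was below 0 for 59 of the 77 members, where 46.5% of all genes tested lay below 0. The median member was at -0.45, which is 73.1% of control, with quartiles of -0.77 and -0.02, and the median over all genes was 0.11. Each library labelled deleted showed a negative median against the mean of the controls, at -0.22, -0.49 and -0.63, with 46, 63 and 65 members below control. The matching medians over all genes were -0.38, -0.03 and 0.04, so library 1 lay low across the whole table and the members were not lower than the other genes in it.

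No member passed the edgeR threshold of 0.05 after adjustment, and neither did any other gene of the table, a background of 0%. At an unadjusted edgeR p under 0.05, 14 members were lower and 2 were higher, beside 4.56% and 5.33% of all genes. The lower count moved with the setting, for the members and for the whole table. Without library 1 labelled deleted it was 36 members, beside 1467 of all 12346 genes tested. It was 6 without library 2, beside 462 of 12145 genes, and 7 without library 3, beside 591 of 12046. With upper quartile factors it was 32, beside 1087 of 12350 genes. With at least 10 counts required in every sample it was 27, beside 713 of 7624. It was 0 with a correction for transcript length or for GC content, beside 225 and 215 of 12350 genes. DESeq2 called 1 member, Mrps27, in the higher direction, where it called 1.09% of genes. It called no member in the lower direction, where it called 0.488% of genes. Limma-voom called none among all genes. At an unadjusted limma-voom p under 0.05, 18 members were lower and 2 higher, beside 930 and 756 of 12350 genes. At an unadjusted DESeq2 p under 0.05, 4 members were lower and 2 higher, beside 416 and 1063 of 12350 genes. Leaving out control 2 kept only controls 1 and 3, added together, on the control side. The members' median was then -0.31, with all genes at 0.16. In 30 members every library labelled deleted lay below both controls, and in 2, Mrps27 and Mrpl3, every one lay above. Over all genes 17.2% were separated downwards and 14.9% upwards.

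**Figure D1:**
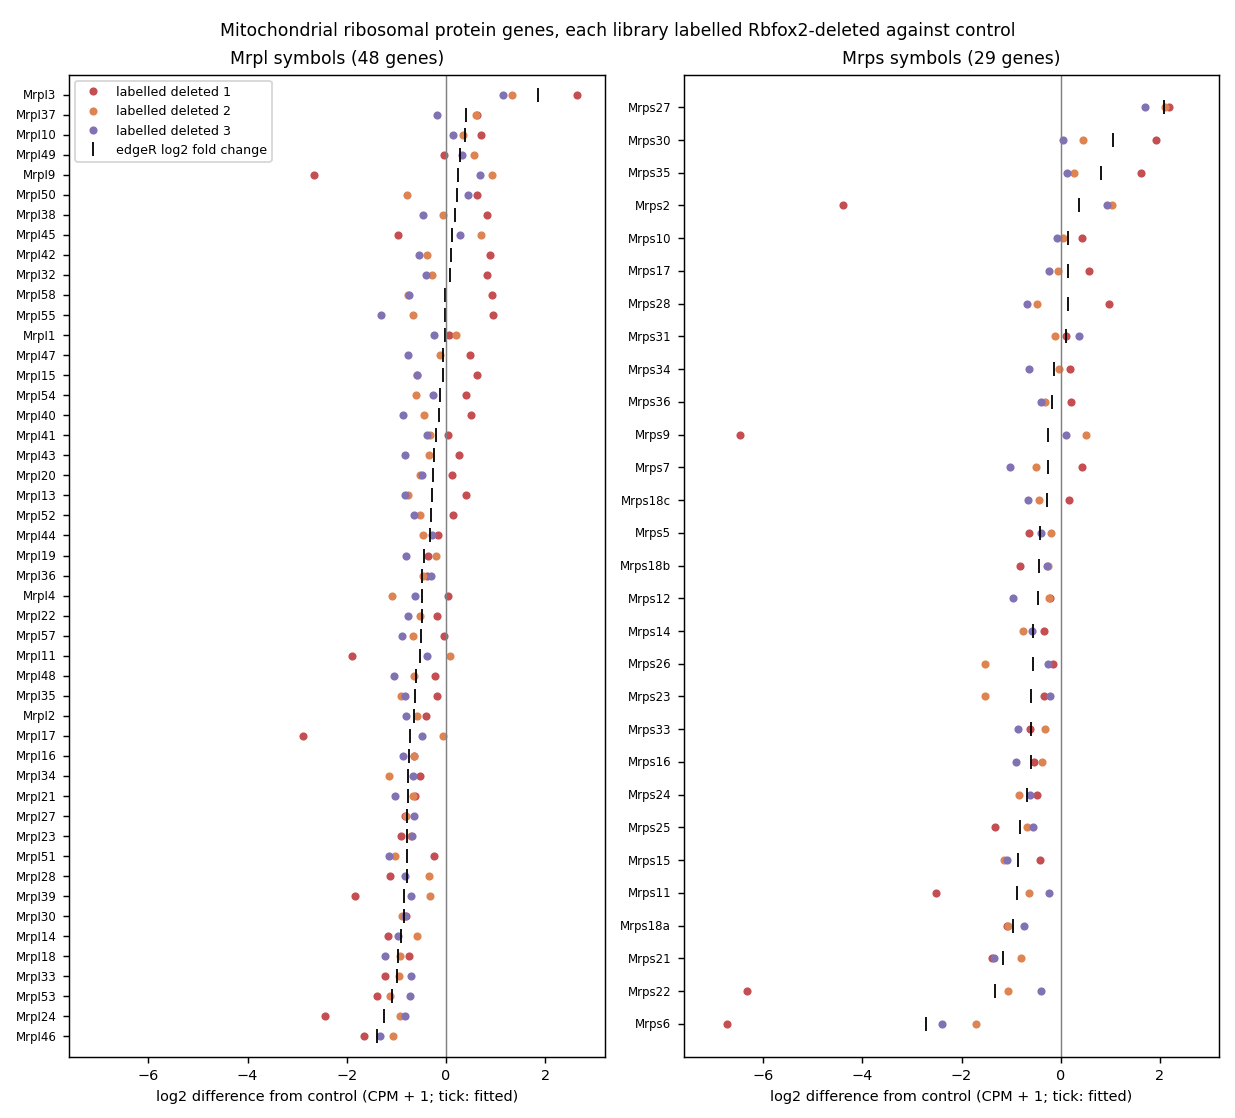
Log2 difference of each library labelled deleted from the mean of the 2 control samples, computed on CPM + 1 (coloured points), with the fitted edgeR log2 fold change (black tick), for the 48 Mrpl genes (left) and the 29 Mrps genes (right), ordered by the fitted value. Ticks lie left of 0 for 59 of 77 genes, and the far-left points of Mrps6, Mrps22, Mrps9 and Mrps2 are all library 1 labelled deleted.

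The large and small subunits differed from control by like amounts. There were 38 of 48 Mrpl genes below control, with a median log2 fold change of -0.47, and 21 of 29 Mrps genes, with a median of -0.44. The difference between the medians was -0.02, with an SD of 0.230 between the libraries labelled deleted, so it was smaller than the spread. By library, the Mrpl median was -0.19, -0.55 and -0.69 and the Mrps median was -0.34, -0.37 and -0.40. Summed over genes, Mrpl mRNAs came to 8690 CPM in controls 1 and 3 and 10900 CPM in control 2, and to 8740, 6880 and 6140 CPM in the libraries labelled deleted. Mrps mRNAs came to 4840 and 6020 CPM in the controls and to 4910, 3820 and 3580 CPM in the others. Library 1 labelled deleted thus overlapped the controls in both sums, and libraries 2 and 3 lay below them. The ratio of the large to the small subunit sum was 1.80 and 1.82 for controls and 1.78, 1.80 and 1.72 for the libraries labelled deleted, a narrow range in which 2 of the latter lay below and 1 lay level with the lower control. As a share of all gene counts, the 77 genes took between 1.13% and 1.16% in the libraries labelled deleted and more in both control samples, up to 1.58%.

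Levels per length differed widely between members although most of these proteins stand in equal numbers in the ribosome. On the scale of CPM per kilobase of transcript, Mrpl33 was the highest member in the controls at 923 and had 467 in the libraries labelled deleted, where Mrpl42 was the highest at 913, after 848 in the controls. Mrpl28 had 556 and 321. Mrps21, the highest Mrps gene in the controls, had 529 and 234, and in the libraries labelled deleted Mrps34 was the highest Mrps gene at 276. At the low end were Mrpl36 with 4.75 and 3.40 and Mrps17 with 7.56 and 8.34. The scale and the order of the members depend on the transcript taken for the length, which was 5061 bases for Mrps17. The median Mrpl gene stood at 135 and 114 CPM per kilobase in the controls and the median Mrps gene at 87.5 and 119, so neither subunit was the higher in both. In the libraries labelled deleted the Mrpl median was the higher each time, at 104, 87.3 and 77.8 against 67.8, 81.2 and 61.5.

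The bacterial-type core of the large subunit had a lower median than its mitochondria-specific proteins. Of 29 members with a bacterial counterpart 25 were below control, with a median of -0.53, and of 21 without one, counting Mrps30 and Mrps18a, which sit in the large subunit whatever their symbols, 14 were below, with a median of -0.21. By library the core had medians of -0.41, -0.58 and -0.70, and the other proteins had 0.04, -0.46 and -0.65, so the core was the lower in each and the gap was widest in library 1 labelled deleted. The difference was not tested. In the small subunit, 12 of 16 conserved members were below control with a median of -0.43, and 7 of 10 members without a bacterial counterpart were below with a median of -0.50.

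Among the core proteins of the large subunit, the 2 with the smallest p were Mrpl18 and Mrpl30. Mrpl18, the homologue of bacterial L18, lies at chr17:12911349-12916345 (mm10, minus strand). It had 310 and 403 CPM in the controls and 209, 186 and 151 CPM in the libraries labelled deleted, with no overlap between groups (log2 fold change -0.97, SE 0.280, edgeR adjusted p = 0.387). Its exons overlap those of Tcp1, a chaperonin subunit gene, on the other strand, and the libraries keep no strand. Tcp1 lay on the other side, with 101 and 108 CPM in the controls and 124, 257 and 195 CPM in the others (log2 fold change 0.88, SE 0.392, edgeR adjusted p = 0.548). Mrpl30 (chr1:37890477-37898535, plus strand), a core protein, had 276 and 326 CPM in the controls and 171, 161 and 169 CPM in the libraries labelled deleted. The libraries labelled deleted were close together and well below both controls (log2 fold change -0.85, SE 0.251, edgeR adjusted p = 0.387).

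Other core members of the large subunit below control are given here if separated at an unadjusted edgeR p under 0.05, a choice that favours large differences. Mrpl33 (chr5:31596935-31664384, plus strand), one of the smallest proteins of the ribosome, had 341 and 542 CPM in the controls and 183, 223 and 264 CPM in the libraries labelled deleted (log2 fold change -0.98, SE 0.310). Mrpl14 had 188 and 244 CPM against 94.9, 143 and 110 CPM. Mrpl27 of the central protuberance had 231 and 329 CPM against 155, 158 and 177 CPM. In these 3 genes all libraries labelled deleted lay below both controls, and control 2 was the higher control each time. Mrpl21, Mrpl23 and Mrpl34 had fitted log2 fold changes between -0.78 and -0.76, and Mrpl24, at the rim of the exit tunnel, had -1.24 (SE 0.515), with 196 and 213 CPM in the controls and 37.2, 107 and 115 CPM in the others. Mrpl24 was lowest in library 1 labelled deleted and its log2 fold change was -0.90 without that library. EdgeR adjusted p ran from 0.402 to 0.505 over these 7 genes. Mrpl28, another member of high level per length, had 430 and 756 CPM against 263, 447 and 320 CPM, so its groups overlapped. The core members separated downwards with a larger p, Mrpl16, Mrpl2, Mrpl36 and Mrpl19, had log2 fold changes of -0.74, -0.65, -0.48 and -0.45.

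Of the 4 core proteins of the large subunit above control, Mrpl3 alone had separated groups. This gene (chr9:105053239-105079888, plus strand), whose bacterial counterpart lies close to the peptidyl transferase centre, had 51.2 and 31.6 CPM in the controls and 256, 103 and 91.1 CPM in the libraries labelled deleted. All libraries labelled deleted lay above both controls, and library 1 was the highest by far. Its log2 fold change of 1.85 (SE 0.605, edgeR adjusted p = 0.414) became 1.21 without library 1.

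Large subunit proteins without a bacterial counterpart were led by Mrpl46. Mrpl46, a protein of the central protuberance, lies at chr7:78775236-78783531 (minus strand), head to head with the small subunit gene Mrps11, and the transcription starts are 412 bases apart with exons that overlap. Mrpl46 had 205 and 366 CPM in the controls and 86.9, 131 and 108 CPM in the libraries labelled deleted (log2 fold change -1.39, SE 0.361, edgeR adjusted p = 0.387). The groups did not overlap, and without library 1 labelled deleted the log2 fold change was -1.27. Its partner Mrps11 had 146 and 212 CPM in the controls and 29.7, 113 and 150 CPM in the others (log2 fold change -0.88, SE 0.654), and its groups overlapped. Mrps18a (chr17:46110986-46128910, plus strand), a protein of the S18 family that sits in the large subunit, had 211 and 284 CPM against 115, 117 and 147 CPM, with no overlap (log2 fold change -0.97, SE 0.295, edgeR adjusted p = 0.39). Mrpl53 of the stalk base had 94.9 and 124 CPM against 40.6, 49.2 and 65.3 CPM, again without overlap (log2 fold change -1.08, SE 0.422, edgeR adjusted p = 0.485).

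**Figure D2:**
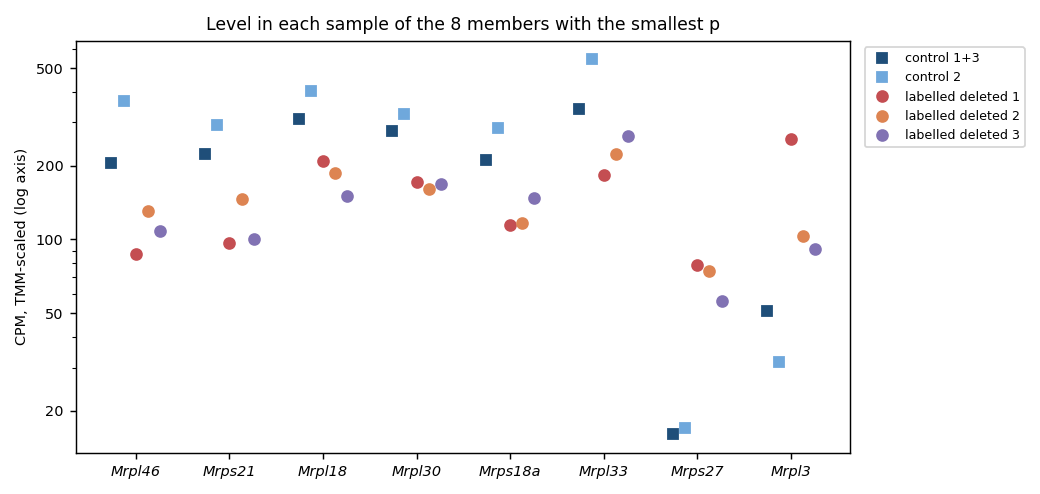
CPM scaled by TMM (log axis) in the 2 control samples (squares) and the 3 libraries labelled deleted (circles) for the 8 members with the smallest edgeR p. In 6 genes all circles lie below both squares, and in Mrps27 and Mrpl3 all lie above.

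The central protuberance, the crown of the large subunit, had 6 of 7 listed members below control and a median of -0.60. The rim of the peptide exit tunnel had 5 of 6 below and a median of -0.61, and the stalk, where translation factors dock, had 3 of 4 measured members below and a median of -0.32. Mrpl45, the exit-site protein that holds the ribosome to the inner membrane, was the member of the rim above control. It had 106 and 167 CPM in the controls and 67.3, 218 and 161 CPM in the libraries labelled deleted (log2 fold change 0.13, SE 0.540), so the libraries labelled deleted lay on both sides of the controls.

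Members of known special role gave no separated groups apart from Mrps18a and Mrps18b. Mrpl58, a peptidyl-tRNA hydrolase built into the large subunit, had 135 and 228 CPM in the controls and 333, 103 and 104 CPM in the others (log2 fold change -0.01, SE 0.608). Library 1 was above both controls and libraries 2 and 3 were below them, and without library 1 the value was -0.82. Mrpl44, a protein with an RNase III fold, had 193 and 142 CPM against 147, 120 and 135 CPM (log2 fold change -0.32, SE 0.309). Mrps30, a large subunit protein, had 123 and 148 CPM against 517, 185 and 138 CPM, and its log2 fold change of 1.05 (SE 0.605) was 0.24 without library 1. Mrpl42, the highest member per length in the libraries labelled deleted, had 452 and 678 CPM against 1020, 425 and 378 CPM (log2 fold change 0.11, SE 0.490), and without library 1 it was -0.51. In both of these library 1 labelled deleted was the highest sample.

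The S18 family has 3 members in mitochondrial ribosomes, of which Mrps18c holds the bacterial S18 place in the small subunit. Mrps18b had 43.8 and 47.6 CPM in the controls and 25.2, 38.0 and 37.5 CPM in the libraries labelled deleted (log2 fold change -0.44, SE 0.556), and Mrps18c had 209 and 209 CPM against 235, 155 and 132 CPM (log2 fold change -0.27, SE 0.338). Mrps18b was separated and Mrps18c was not, since library 1 exceeded both controls. Mrps12, the decoding-centre protein known for streptomycin resistance in bacteria, had 229 and 322 CPM against 235, 230 and 138 CPM. Mrps36, since found to belong to the oxoglutarate dehydrogenase complex, had 31.4 and 44.9 CPM against 43.3, 30.0 and 28.2 CPM. Both overlapped between groups.

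In the small subunit the lower members were led by Mrps21, and the one member called by any tool was Mrps27. Mrps21, the bacterial S21 homologue (chr3:95862634-95871519, minus strand), had 223 and 293 CPM in the controls and 97.1, 146 and 100 CPM in the libraries labelled deleted. The groups were well apart (log2 fold change -1.17, SE 0.322, edgeR adjusted p = 0.387). Mrps15 had 311 and 407 CPM against 268, 160 and 167 CPM (log2 fold change -0.86, SE 0.331, edgeR adjusted p = 0.479), Mrps24 had 277 and 412 CPM against 243, 188 and 219 CPM, and Mrps14 had 573 and 715 CPM against 507, 380 and 431 CPM. These 3 were separated, with library 1 labelled deleted the nearest to the controls. Mrps25 had 186 and 214 CPM against 79.4, 124 and 135 CPM (log2 fold change -0.82, SE 0.346), and here library 1 was the farthest.

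Mrps27 encodes a pentatricopeptide repeat protein of the small subunit that binds RNA, and it was the member with the smallest p of all. It lies at chr13:99344786-99415562 (plus strand). It had 16.1 and 17.0 CPM in the controls and 78.9, 74.1 and 56.1 CPM in the libraries labelled deleted, so the controls were nearly equal and every other library stood far above them. Its log2 fold change of 2.08 (SE 0.532) had an edgeR adjusted p of 0.387 and a DESeq2 adjusted p of 0.0147, and became 1.96 without library 1. Its exons overlap those of 6430562O15Rik, so without strand its reads may be shared. Its level per length, 8.94 CPM per kilobase in the controls and 37.7 in the libraries labelled deleted, ranked low among the members in both.

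The gene on the other side of its promoter showed the same pattern. Ptcd2, another pentatricopeptide repeat protein of mitochondria, is transcribed away from Mrps27 from a start 81 bases upstream. Ptcd2 had 51.5 and 42.4 CPM in the controls and 226, 116 and 154 CPM in the libraries labelled deleted, again without overlap (log2 fold change 1.82, SE 0.428, edgeR adjusted p = 0.387). The interval between their starts is shown because it is shared by the one member that DESeq2 called and by its neighbour. It is RefSeq sequence of build GRCm38.p6 (chr13:99344706-99344785, plus strand), and the capitals mark the reverse complement of the ETS-type motif CCGGAAG.
Mrps27 upstream interval: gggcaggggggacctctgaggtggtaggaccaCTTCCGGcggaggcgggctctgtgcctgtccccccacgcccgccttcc

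The other small subunit members above control were smaller in difference and overlapped between groups. Mrps35 had 113 and 74.4 CPM against 282, 110 and 99.6 CPM (log2 fold change 0.81, SE 0.562), and without library 1 it was 0.15. Mrps10 had 162 and 147 CPM against 207, 160 and 147 CPM. Mrps34, one of the higher small subunit members per length, was just below control in the fit, with 251 and 303 CPM against 313, 270 and 178 CPM (log2 fold change -0.13, SE 0.323). In the large subunit Mrpl37 (log2 fold change 0.40, SE 0.358), Mrpl10 (0.39, SE 0.431) and Mrpl49 (0.29, SE 0.368) were likewise above control with overlapping groups.

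Library 1 labelled deleted held many of the extreme values. In 3 members, Mrpl3, Mrps30 and Mrps35, it had over 2 times the highest other sample, beside 12.2% of all genes, and in 10 it had under 0.5 of the lowest, beside 20.5% of all genes. It had 0 counts of Mrps6, Mrps22 and Mrps9, each with at least 100 counts in every other sample, a pattern seen in 4.75% of genes. A count of 0 in that library allows up to 0.152 CPM on the TMM scale used for the other values. Mrps6 had 74.0 and 146 CPM in the controls and 31.3 and 18.9 CPM in libraries 2 and 3 labelled deleted, so it was lower there too, whereas Mrps9 had 89.6 and 85.9 CPM against 125 and 94.1 CPM. Without library 1 the members' median was -0.60 and 65 members lay below control.

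Transcript length went along with the differences. Of the 25 members with transcripts up to 1000 bases 23 lay below control, with a median of -0.49, and all 940 genes of that length had a median of -0.61 with 79.6% below. Short members were thus not lower than other short genes. Of the 27 members over 1000 and up to 2000 bases 19 were below, with a median of -0.32, where all genes of that length had 0.07. Of the 25 longer members 17 were below, with a median of -0.41, where all genes over 2000 bases had 0.24. In the longer classes the members lay below the other genes of like length. Across the 77 members the Spearman correlation of log2 fold change with length was 0.31, and across all 12328 genes with a length it was 0.03; genes share the same 5 samples, so these are descriptions.

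**Figure D3:**
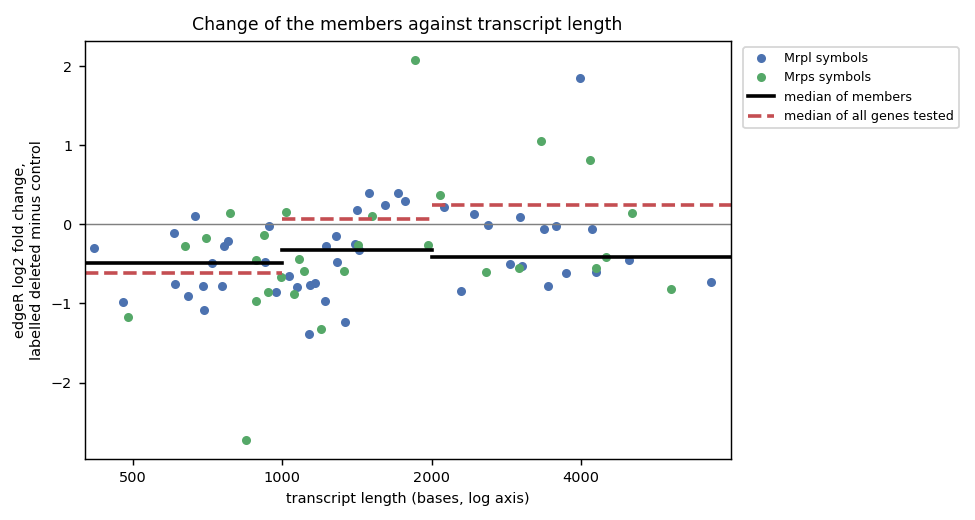
Fitted log2 fold change of each member against the length of its principal transcript (log axis), with the median of the members (black line) and of all genes tested (red dashed line) in the classes up to 1000, up to 2000 and over 2000 bases. The lines nearly meet for short transcripts, at -0.49 and -0.61, and part for transcripts over 2000 bases, at -0.41 and 0.24.

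With a smooth correction of each sample for transcript length the members' median became 0.17, with all genes at 0.43 and 28 of 77 members below control. With the same correction for GC content it was 0.03, with all genes at 0.46. Relative to the median of all genes the members were at -0.26 and -0.44 under the corrections, where they were at -0.56 without one, while the sign of their own median turned. Under the length correction Mrpl46 was at -0.76, Mrps21 at -0.26, Mrpl18 at -0.34 and Mrpl30 at -0.05, and Mrps27 kept 2.11. With sex as a covariate the median was -0.52. No control was female, so in that fit the group term rested on library 2 labelled deleted alone against the controls. Sex and group could not be told apart for libraries 1 and 3 labelled deleted. Members whose exons overlap another gene (32) had a median of -0.47, and the other 45 had -0.41.

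The genes that work with these proteins did not all share their direction. Of the 5 mitoribosomal proteins with other symbols 2 lay below control, with a median of 0.01. Aurkaip1 had 311 and 400 CPM in the controls and 120, 179 and 269 CPM in the libraries labelled deleted (log2 fold change -0.91, SE 0.387), without overlap, and Dap3, a GTP-binding protein of the small subunit, had 112 and 84.9 CPM against 77.0, 192 and 124 CPM.

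Factors that assemble the ribosome lay higher in the fit. Of 27 assembly factors 21 were above control, with a median of 0.39, although library 1 labelled deleted had a median of -0.11 where libraries 2 and 3 had 0.37 and 0.61. Fastkd2, which binds the large ribosomal RNA during assembly, had 3.63 and 2.99 CPM in the controls and 30.3, 21.3 and 15.8 CPM in the libraries labelled deleted (log2 fold change 2.76, SE 0.992, edgeR adjusted p = 0.455, DESeq2 adjusted p = 0.0192). Every library labelled deleted lay far above the controls.

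Mitochondrial tRNA synthetases, which charge tRNAs for this ribosome, had 12 of 16 above control and a median of 0.75, again with library 1 at -0.57 against 0.50 and 0.66. Rars2, the arginine enzyme, had 17.6 and 18.1 CPM in the controls and 149, 62.6 and 67.3 CPM in the others (log2 fold change 2.38, SE 0.609, edgeR adjusted p = 0.387, DESeq2 adjusted p = 0.0407). The groups did not overlap and library 1 was the highest.

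Translation factors were split, with 8 of 16 on each side and a median of -0.06. Tufm, the elongation factor that brings tRNA to the ribosome, had 69.5 and 69.0 CPM against 178, 137 and 113 CPM, all above the controls (log2 fold change 1.04, SE 0.365, edgeR adjusted p = 0.443). Genes of mitochondrial transcription and RNA processing were split as well, with 8 of 18 below control and a median of 0.06. Among them Trmt10c, a subunit of mitochondrial RNase P, had 14.1 and 16.1 CPM against 59.7, 46.9 and 58.5 CPM (log2 fold change 1.86, SE 0.579, edgeR adjusted p = 0.397, DESeq2 adjusted p = 0.0333).

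The mRNAs that the mitochondrial ribosome translates are the 13 encoded by mitochondrial DNA. Of these 7 lay below control, with a median of -0.17, and library 3 labelled deleted had all 13 below. The mRNA mt-Co2, a core subunit of cytochrome oxidase, had 4430 and 4700 CPM in the controls and 2540, 2540 and 1450 CPM in the others, a clear separation (log2 fold change -1.07, SE 0.302, edgeR adjusted p = 0.387). The mitochondrial ribosomal RNAs were not analysed here. Genes taken as a sign of mitochondrial mass (porins, import receptors, matrix chaperones) had 10 of 12 above control and a median of 0.45. Vdac3, an outer membrane channel, had 194 and 133 CPM against 310, 309 and 238 CPM (log2 fold change 0.80, SE 0.307).

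The groups most like the members lay on the same side. Among cytosolic ribosomal proteins 74 of 76 genes were under control (median -0.64), and among nuclear genes of the respiratory chain 63 of 75 tested were (median -0.58). Both lists are short-transcript genes, with median lengths of 882 and 875 bases, against 1290 bases for the members and 2810 bases over all genes. By library the cytosolic list had -0.45, -0.68 and -0.87, so the order of the libraries was that of the members. These lists share all samples with the members, and no test of the difference was made.

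**Figure D4:**
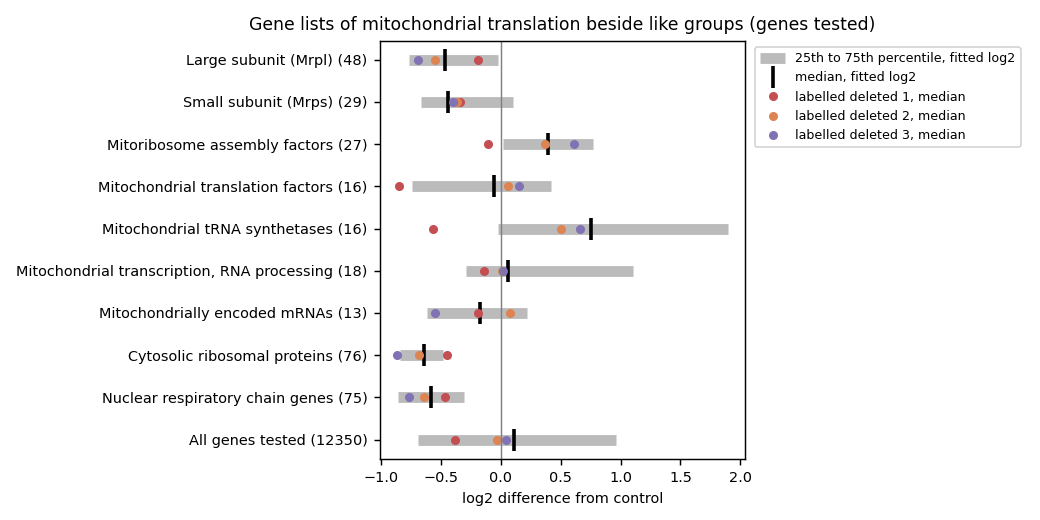
Median fitted log2 fold change (black tick) with the 25th to 75th percentile (grey bar) of each gene list, and the median of each library labelled deleted against control (coloured points), with the number of genes tested in parentheses. The members, the cytosolic ribosomal proteins and the respiratory chain genes lie left of 0, and the assembly factors (0.39) and tRNA synthetases (0.75) lie right of it.

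Many members share a promoter with another gene. For 22 members a gene outside the group is transcribed from the opposite strand with a start within 500 bases. In 7 of these pairs both genes were below control, in 10 the member was below and the neighbour above, in 3 the member was above and the neighbour below, and in 2 both were above. The members of these pairs had a median of -0.30 and their neighbours 0.12, which is close to the 0.11 of all genes. Of the 7 members separated downwards, 5 had a neighbour separated downwards and 0 had one separated upwards, beside 17.2% and 14.9% of all genes. In 3 of those 5 pairs, Mrpl21 with Ighmbp2, Mrpl27 with Eme1 and Mrpl36 with Ndufs6, exons of the genes overlap, and without strand their reads cannot be told apart there.

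The neighbours below were named after their values had been seen. Psma2, a proteasome subunit gene 75 bases from Mrpl32, had 759 and 787 CPM in the controls and 396, 343 and 445 CPM in the libraries labelled deleted (log2 fold change -0.97, SE 0.229, edgeR adjusted p = 0.387). Mrpl32 did not share this pattern, with 78.9 and 144 CPM against 189, 87.9 and 80.2 CPM. Fau, which encodes a cytosolic small subunit protein fused to a ubiquitin-like one and lies 59 bases from Mrpl49, had 545 and 507 CPM against 393, 400 and 277 CPM, while Mrpl49 had 88.9 and 128 CPM against 104, 159 and 135 CPM. Ndufs6, a complex I subunit gene 29 bases from Mrpl36, had 232 and 268 CPM against 96.8, 173 and 143 CPM, and Mrpl36 was also lower in all, at 4.73 and 4.03 CPM against 3.14, 2.91 and 3.37 CPM. Mitd1, 66 bases from Mrpl30, had 79.0 and 84.8 CPM against 58.5, 65.4 and 65.7 CPM, and both genes of the pair were separated downwards. Apba3, 26 bases from Mrpl54, had 19.2 and 13.1 CPM against 30.2, 62.2 and 77.7 CPM, where Mrpl54 overlapped between groups.

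**Figure D5:**
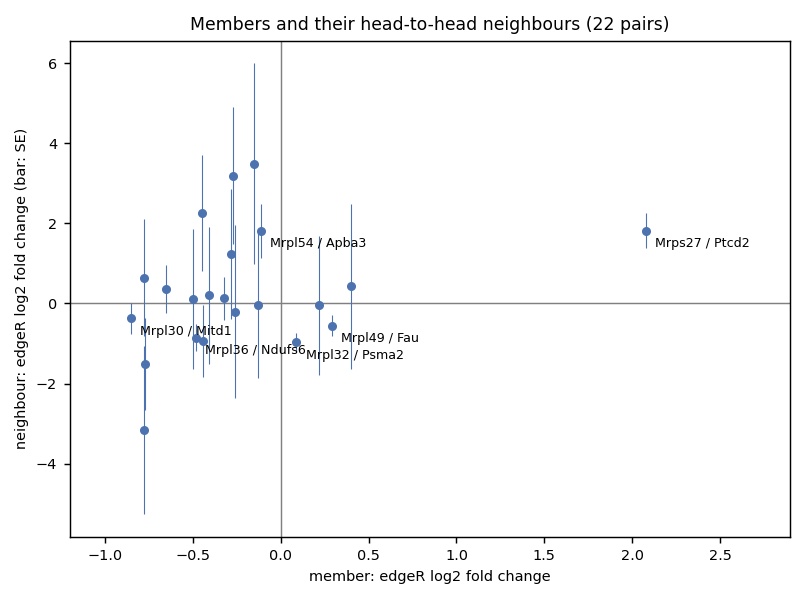
Fitted log2 fold change of 22 members (horizontal axis) and of the gene that starts head to head with each within 500 bases (vertical axis), with the SE of the neighbour as a bar. Mrps27 with Ptcd2 lies alone at the upper right, and the other pairs spread over both signs of either axis with wide bars for the low neighbours.

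The promoters of the members held some letters more often than other genes. RefSeq promoter windows (GRCm38.p6, from 250 bases before to 50 after the start) were matched for 68 members and for 9737 of the genes tested, and 9 motifs were searched on both strands. The ETS-type motif CCGGAAG stood in 26 members (38.2%), against 20.4% of all promoters. Of those 26 members 24 lay below control, with a median of -0.59, and of the 42 without the letters 29 lay below, with a median of -0.27. Genes outside the members were not split by this motif, transcript length was not taken into account, and the difference was not tested. The YY1 motif AAGATGGCG stood in 8 members (11.8%, against 3.64%), of which 5 lay below control. The palindromic NRF1 motif stood in 3 members (4.41%, against 2.30%) and the ERR motif TCAAGGTCA in 0 (against 0.39%). The GC box GGGGCGGGG (19.1% against 24.0%), the CCAAT box (39.7% against 43.0%), the TATA box TATAAA (7.35% against 8.74%) and the E box CACGTG (7.35% against 11.7%) were not more frequent. The letters GCATG, the RNA motif of the Rbfox family read here as DNA, stood in 29.4% of the members' promoters and 31.8% of all. These letters also lie inside the NRF1 motif, and no other motif searched holds another. A match describes letters only.

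The 8 members with the YY1 letters are shown because they hold both Mrps27 and members that were lower in every library labelled deleted, so the same letters stood beside opposite differences. Each window is read in the direction of the motif, with the motif in capitals.
Mrps27 (chr13:99344792-99344816): tgcgctccAAGATGGCGgctcccat
Mrps18a (chr17:46111007-46111031): tgcgttccAAGATGGCGgccctcag
Mrps11 (chr7:78783015-78783039): aagacagaAAGATGGCGgcgcccgt
Mrps24 (chr11:5707652-5707673): gccggcccAAGATGGCGtggtc
Mrpl35 (chr6:71823745-71823769): caggctgcAAGATGGCGgcttccat
Mrpl36 (chr13:73330970-73330994): caggaagaAAGATGGCGtaaggtca
Mrpl37 (chr4:107066824-107066848): cacgggcaAAGATGGCGgcgtccag
Mrpl42 (chr10:95501906-95501930): attgaagcAAGATGGCGagcgcgcg

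In Mrps27, Mrps18a, Mrps24, Mrpl35, Mrpl37 and Mrpl42 the match lies downstream of the RefSeq start, with its first base 12 to 37 bases from it. In Mrps11 and Mrpl36 it lies upstream of the RefSeq start and on the other strand. Head-to-head neighbours were taken from GENCODE starts instead. For Mrps24, Mrpl35 and Mrpl36 the RefSeq start lies well inside the GENCODE gene, so these windows are not at the GENCODE start. Mrps27 and Mrps18a share 2 of the searched motifs, ETS and YY1, and differed in direction, with log2 fold changes of 2.08 and -0.97. The interval upstream of Mrpl30 (chr1:37890412-37890476, plus strand), shared with Mitd1, held none of the motifs, although both genes were lower in every library labelled deleted.
Mrpl30 upstream interval: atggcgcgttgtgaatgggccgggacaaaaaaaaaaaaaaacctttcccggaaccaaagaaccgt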

How the data were processed

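The authors deposited raw counts of reads per gene for 6 Smart-seq2 libraries, keyed by Ensembl identifier and not normalized. The submitters' processing notes name Trimmomatic 0.39, DESeq2 1.36.0, featureCounts and the build mm10. Which aligner and annotation were used, whether strand was counted and how multiply matching reads were handled is not stated in these sources, so members with processed pseudogenes or overlapping genes have uncertain counts. The 23043 rows of the table were summed to 22969 identifiers, of which 22839 had a symbol.

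The members and all gene lists were chosen with earlier results of these data known. Controls 1 and 3 were summed as 1 sample. Counts of all genes were fitted with edgeR 4.0.16 under R 4.3.3 (TMM scaling; filterByExpr with min.count 10 and min.total.count 15; quasi-likelihood F test, two-sided; the group alone in the design), with Benjamini-Hochberg adjustment across the 12350 genes tested and a threshold of 0.05. DESeq2 1.42.0 and limma-voom (limma 3.58.1) ran on the same genes, and DESeq2 left 11471 genes with an adjusted p. A fold change is labelled deleted minus control on the log2 scale, and its SE is its size divided by the square root of F. CPM were scaled by the TMM factors. A library's own log2 difference used CPM + 1. The labels give replicate numbers and no identity of the mice, and p-values measure the spread between these 5 samples. A median member had 3350 counts in the shallowest sample and 17500 in the deepest, and 4 members had under 10 counts in library 1 labelled deleted. PCR reads without identifiers are not independent molecules, so the floor given for a count of 0 (3 counts) covers counting error only.

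Coordinates, lengths, GC content and exon overlaps came from GENCODE vM21 on mm10, with length and GC content of the principal transcript. The corrections for length and GC content took a lowess curve (span 0.3) of each sample's deviations as offsets. The scripts were tested on simulated data. Named members were, in each subunit, the 6 below and the 4 above control with the smallest p, the 3 with the highest level per length, those called by DESeq2 or separated at an unadjusted p under 0.05, and 9 of known special role. From each other list the gene with the smallest p was named, except for the cytosolic ribosomal proteins and the respiratory chain genes. Any others were chosen after their values were seen.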

Additional observations from a re-analysis of the deposited data

How the results depend on the processing

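No member passed the edgeR threshold under any of the alternatives tried with edgeR or limma-voom, and DESeq2 called 1 member. The members' median of -0.45 was -0.80 with upper quartile factors, 0.03 with the GC correction, 0.17 with the length correction and -0.13 with the replicate block and GC correction, and -0.60 to -0.31 when a replicate was left out. For the Mrpl genes (-0.47) the values under those settings were -0.80, 0.11, 0.21 and -0.13, with -0.62 to -0.31 on leaving a replicate out. For the Mrps genes (-0.44) they were -0.75, 0.01, 0.13 and -0.13, with -0.59 to -0.27 on leaving a replicate out. The Mrps median was also -0.54 with limma-voom, -0.59 with no filter and with at least 10 counts in every sample, -0.39 with sex as a covariate, -0.40 with 6 separate libraries and -0.48 with the replicate block. The Mrpl minus Mrps difference changed by less than the spread between libraries under every alternative. Members below control numbered 35 with the GC correction and 28 with the length correction, and 50 to 69 under all others. The share of all genes below control under each alternative is not given here. The median over all genes moved from 0.11 to -0.20 with upper quartile factors, -0.32 with limma-voom and -0.27 with the replicate block. It was 0.43 with the length correction and 0.46 with the GC correction. Relative to all genes, the members' median moved from -0.56 to -0.18 with limma-voom and -0.16 with the replicate block. It was -0.15 with the replicate block and GC correction, and -0.80 to -0.26 under the other alternatives. The subunits by structure and the members without overlapping exons were alternatives chosen after seeing the data.

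Whether replicate numbers pair the samples could not be decided. The correlations of same-numbered deviations were -0.0423, -0.0089 and 0.0491. The near-identical controls were kept separate in this check and gave nearly the same correlation with each library labelled deleted. The remaining control gave correlations of the opposite sign, so same-numbered and other pairs were not independent. With 6 separate libraries 19 members were lower and 2 higher at an unadjusted edgeR p under 0.05, beside 862 and 1283 of 12144 genes. With the replicate block 15 were lower and 2 higher, beside 663 and 685 genes. With the replicate block and GC correction 1 was lower and 2 were higher, beside 294 and 447 genes.

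Single members changed sign under the length and GC corrections and under other settings as well, and the cause was not tested. With the length correction the log2 fold changes were Mrpl23 0.08, Mrpl27 0.08, Mrpl34 0.15, Mrpl44 0.09, Mrpl45 -0.14, Mrpl58 0.46, Mrps12 0.41, Mrps15 0.02, Mrps18b 0.22, Mrps18c 0.65, Mrps24 0.13, Mrps34 0.73 and Mrps36 0.73. With the GC correction they were Mrpl44 0.12, Mrpl58 0.65, Mrps12 0.01, Mrps14 0.02, Mrps18c 0.36, Mrps34 0.57 and Mrps36 0.41. With the replicate block and GC correction they were Mrpl58 0.17, Mrps18c 0.06, Mrps34 0.26 and Mrps36 0.28. With upper quartile factors they were Mrpl42 -0.32, Mrpl45 -0.15, Mrpl49 -0.03 and Mrps10 -0.21. With no filter they were Mrpl42 -0.08, Mrpl45 -0.01 and Mrps10 -0.02, and with at least 10 counts in every sample Mrpl42 -0.14 and Mrps10 -0.04. Mrpl42 was -0.06 with limma-voom and -0.41 with sex as a covariate, and Mrpl58 was 0.13 with 6 separate libraries and 0.06 with DESeq2. On leaving a replicate out Mrpl42 ran from -0.51 to 0.43, Mrpl45 from -0.28 to 0.51, Mrpl58 from -0.82 to 0.42, Mrps10 from -0.02 to 0.24, Mrps34 from -0.32 to 0.06 and Mrps36 from -0.44 to 0.12.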
